A study of Mus musculus with 6 samples.

Results

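The genes described here encode the glycine receptors and the plasma membrane glycine transporters: the alpha subunits Glra1, Glra2, Glra3 and Glra4, the beta subunit Glrb, and the transporters Slc6a5 and Slc6a9. They were chosen by symbol, keeping for each gene the probe row with the highest mean among rows that name only that gene. Of the 7 genes, 6 had such a row, 1 row each, out of 22180 genes with a row of their own. The row of Slc6a9 also names Ccdc24, so Slc6a9 has no value here. RNA came from male C57BL/6J mice, and the tissue is labelled as whole hippocampus. Pups of the ethanol group received ethanol at 2.5 g/kg in 0.15 M NaCl under the skin, and control pups received saline. Both groups had 2 injections, 2 hours apart, on postnatal day 4 and again on day 7. Each group has 3 whole-transcript Affymetrix arrays, and each array holds RNA pooled from 3 mice. The age is 21 days in the sample characteristics but day 70 in the treatment protocol.

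Glycine opens a chloride channel made of 5 subunits, and in the spinal cord, the brainstem and the retina it is a main fast inhibitory transmitter. Alpha subunits carry most of the agonist site, and the beta subunit ties the receptor to the scaffold protein gephyrin under the synapse. In the hippocampus glycine receptors lie largely outside synapses, where glycine and taurine activate them, and alpha2 is the alpha subunit best known from the newborn brain. Slc6a5 (GlyT2) returns glycine to glycinergic nerve endings, and Slc6a9 (GlyT1), mostly of astrocytes, lowers glycine around synapses, where it also serves as co-agonist of NMDA receptors. Ethanol is known to potentiate glycine receptor currents. The question the design poses for these genes is whether their transcripts still differed weeks after ethanol given to newborn pups.

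On mouse build GRCm38, Glrb lies on chromosome 3 from 80843598 to 80913660, Glra1 on chromosome 11 from 55514239 to 55608198 and Glra3 on chromosome 8 from 55940418 to 56130070. Glra2 and Glra4 lie on chromosome X, from 165129017 to 165327867 and from 136754515 to 136780141. Slc6a5 lies on chromosome 7 from 49906984 to 49963864. The 250 bases upstream of the annotated start of Glrb and of Glra3 are shown, as the genes with the brightest and the dimmest row, because both windows lie outside the annotated gene body. Sequences are from RefSeq on GRCm38.p6, 5′ to 3′ on the gene's strand, with the dinucleotide CG, the site of DNA methylation, in capitals; CG reads the same on both strands.
Glrb, chr3:80913661-80913910, minus strand: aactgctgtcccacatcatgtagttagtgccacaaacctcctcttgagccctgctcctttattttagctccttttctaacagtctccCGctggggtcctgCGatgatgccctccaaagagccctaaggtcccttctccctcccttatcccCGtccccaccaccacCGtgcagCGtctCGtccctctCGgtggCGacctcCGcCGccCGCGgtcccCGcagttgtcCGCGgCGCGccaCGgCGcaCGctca
Glra3, chr8:55940168-55940417, plus strand: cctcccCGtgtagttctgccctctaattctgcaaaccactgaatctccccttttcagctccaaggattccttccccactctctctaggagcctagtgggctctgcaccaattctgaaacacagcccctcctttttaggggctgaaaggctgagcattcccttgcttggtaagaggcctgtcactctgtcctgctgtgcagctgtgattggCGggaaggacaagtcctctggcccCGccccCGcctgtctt
The Glrb window holds 20 CG sites with 62.4% G or C, and the Glra3 window holds 4 with 56.0%. Over 32851 promoter windows of the same length the median was 6 CG sites, and 92.1% held at least 1. Methylation was not measured on these arrays, so the sites describe the sequence only.

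Levels are log2 expression values. Because probe sets bind with unequal strength, a level says how bright a gene's row is and does not rank transcripts of different genes. As a reference for dim rows, the 1390 olfactory and vomeronasal receptor genes had a median level of 4.49, with the 95th percentile at 6.98, and the median gene stood at 7.10. Glrb, Glra2, Slc6a5 and Glra1 were above that 95th percentile, with means over the 6 arrays of 10.83, 8.59, 8.34 and 8.05. Glra4 at 6.90 and Glra3 at 5.71 were not, and lay within the range of the rows of these receptors.

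The marker genes did not match the tissue label. All 8 measured cerebellar neuron markers were above the same dim reference, with a median level of 12.04, whereas 0 of 4 telencephalic excitatory neuron markers (Neurod6, Emx1, Emx2 and Tbr1) were. Of the dentate gyrus and CA1 markers 4 of 8 were above it. All 5 astrocyte markers were above it, against 0 of 12 Hox genes of hindbrain and spinal cord and 0 of 4 retina genes. Slc6a5 is also known from Golgi cells, inhibitory interneurons of the cerebellum, whose marker Grm2 had means of 8.87 ± 0.03 on the ethanol arrays and 8.82 ± 0.07 on the saline arrays (SD, n = 3). In RNA of a whole tissue, fewer cells of a type and less RNA per cell cannot be told apart. Which cells the glycine receptor transcripts came from was not tested. Array medians lay between 6.55 and 6.66, and correlations between arrays over all rows between 0.987 and 0.992. Ethanol array 2 had the largest SD over rows, at 2.03, and saline array 2 the smallest, at 1.97.

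None of the 6 genes differed between ethanol and saline beyond the spread between arrays. By limma, 0 of 6 passed at an adjusted p under 0.05, as did 0.0% of the 41345 rows tested. At an unadjusted p under 0.05 there were 0 of 6, where 5.54% of all rows and 3.18% of genes with 1 row each reached it. Ethanol means were above saline means for 5 genes and below for 1, with a median difference of 0.06, beside 57.2% of all genes above and a median of 0.02. Among genes within 0.5 of each gene's level, the share above was 69.8% for Glra1, 79.6% for Glra2, 75.5% for Slc6a5 and 96.1% for Glrb. It was 38.2% for Glra3 and 44.2% for Glra4. The groups did not overlap for 1 of 6 genes, Glrb. Among all rows they did not overlap in 11.1%, and in 5.06% with ethanol higher. Among genes with 1 row each they did not overlap in 10.5%.

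Glrb, the beta subunit, had the brightest row and the difference of greatest size among the 6. Its values were 10.89, 11.05 and 10.82 on ethanol arrays 1 to 3 and 10.78, 10.67 and 10.80 on saline arrays 1 to 3. Every ethanol array was above every saline array, but ethanol array 3 lay only 0.02 above saline array 3, and the extremes were ethanol array 2 and saline array 2. The means were 10.92 ± 0.12 and 10.75 ± 0.07 (SD, n = 3), a difference of 0.17 ± 0.09 (log2, SE) that did not pass (limma adjusted p = 0.857). The 95% interval ran from -0.04 to 0.39, or from 0.97-fold to 1.31-fold.

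Genes as bright as Glrb shared its direction. Of the 493 genes within 0.5 of its level, 96.1% had a higher mean in ethanol, with a median difference of 0.09, and 55.0% had their highest value on ethanol array 2, as Glrb did. In 13.2% of these genes every ethanol array was above every saline array. Over all genes ordered by level, in 10 bins of equal size, the median difference went from -0.02 in the dimmest bin to 0.08 in the brightest. The Glrb difference moved with the scaling. It was 0.10 with quantile normalization and 0.09 with cyclic loess, and the groups overlapped under both. With each array centred on its median it was 0.21, without overlap. It was 0.10 without ethanol array 2, 0.13 without saline array 2 and 0.06 without both. The groups did not overlap in any of these settings, but with fewer arrays that was commoner over all rows. It held for 17.5% of rows without ethanol array 2, 19.4% without saline array 2 and 29.9% without both. The cerebellar marker list had 7 of 8 genes higher in ethanol and a median difference of 0.06. Its median level of 12.04 lies in the brightest bin, where the median difference over all genes was 0.08. The summed level of the list lay between 14.76 and 14.82 on the ethanol arrays and at 14.71 on the saline arrays. The astrocyte list had a median difference of 0.12, with 4 of 5 genes higher, and its summed level lay between 12.98 and 13.13 on the ethanol arrays and between 12.87 and 12.99 on the saline arrays, with overlap. Aqp4, the astrocyte water channel, differed by 0.26 ± 0.07 (SE, limma adjusted p = 0.857), and its groups did not overlap. Gjb6, the astrocyte marker with a lower mean in ethanol, differed by -0.05 ± 0.10 (SE), with overlap. The smallest limma adjusted p over all rows was 0.857, so genes with this value can differ in unadjusted p. By limma the unadjusted p was 0.102 for Glrb and 0.00869 for Aqp4. The oligodendrocyte list had a median difference of 0.03, with 4 of 4 genes higher, and its summed levels overlapped between the groups. The other marker lists did not lean higher alike. Dentate gyrus and CA1 markers had 4 genes higher and 4 lower (median 0.01). Of these, Fibcd1 was lower without overlap, by -0.22 ± 0.08 (SE, limma unadjusted p = 0.0301, adjusted p = 0.857). Hindbrain and spinal cord genes had 7 higher and 5 lower (median 0.01). Telencephalic markers had 1 higher and 3 lower (median -0.09), as did retina genes (median -0.07). The part of any of these lists in the Glrb value was not tested.

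**Figure D1:**
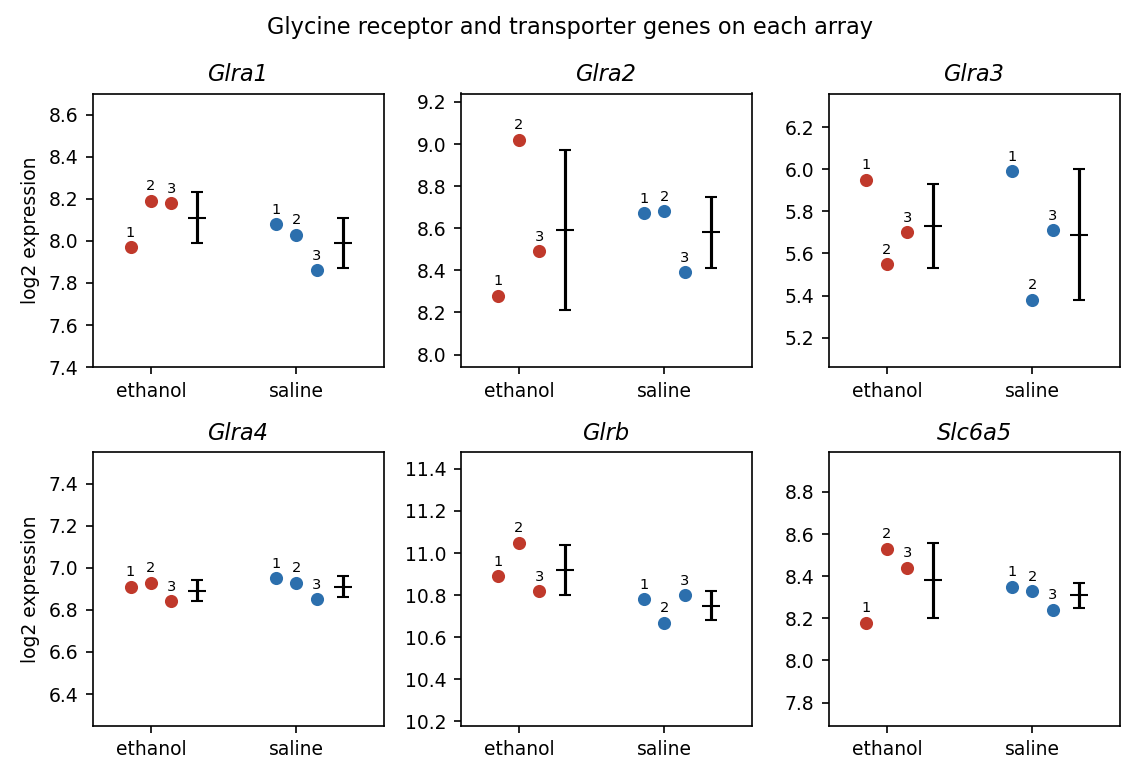
Log2 expression (vertical axis) of 6 glycine receptor and transporter genes on each array, in ethanol (red) and saline (blue), with the array number above each point and the group mean ± SD in black (n = 3); every panel spans the same range of log2 units around its gene's mean. Only in the Glrb panel do the groups not overlap, by 0.02, and the Glra2 panel shows the widest ethanol spread.

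Among the alpha subunits, Glra1, the main alpha subunit of the adult spinal cord and brainstem, had values of 7.97, 8.19 and 8.18 on ethanol arrays 1 to 3. On the saline arrays it stood at 8.08, 8.03 and 7.86. Ethanol arrays 2 and 3 were above all saline arrays, whereas ethanol array 1 lay between the saline values, so the groups overlapped. The difference was 0.12 ± 0.10 (SE, 3 arrays against 3; limma adjusted p = 0.871), with a 95% interval from -0.12 to 0.36. It was 0.19 without ethanol array 1, where the groups no longer overlapped, and 0.05 without saline array 3.

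Glra2, the alpha subunit of the immature brain, varied most from array to array. It stood at 8.28, 9.02 and 8.49 on ethanol arrays 1 to 3, so that this group held both the lowest and the highest value of all 6 arrays. On the saline arrays it was at 8.67, 8.68 and 8.39. Its SD within groups of 0.29 exceeded that of 99.4% of the 3570 genes within 0.5 of its level. The difference was 0.01 ± 0.19 (SE; limma adjusted p = 0.993), and the interval from -0.45 to 0.47 leaves room for 0.73-fold to 1.39-fold. The sign rested on single arrays: the difference was -0.20 without ethanol array 2 and -0.08 without saline array 3.

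Glra3, an alpha subunit known from pain pathways of the dorsal horn and also found in the hippocampus, was dim on every array. It stood at 5.95, 5.55 and 5.70 in ethanol and at 5.99, 5.38 and 5.71 in saline, with array 1 the highest and array 2 the lowest of each group. The difference was 0.04 ± 0.17 (SE; limma adjusted p = 0.970; 95% interval -0.37 to 0.45), and it changed sign without ethanol array 1 (-0.07) or saline array 2 (-0.12). Glra4, the least studied alpha subunit, stood at 6.91, 6.93 and 6.84 in ethanol and at 6.95, 6.93 and 6.85 in saline. All 6 values lay within 0.11, and the SD within groups of 0.05 exceeded that of only 8.57% of genes of like level. Its difference of -0.02 ± 0.07 (SE; limma adjusted p = 0.967) had the narrowest interval of the 6, from -0.19 to 0.15, and was 0.01 without ethanol array 3.

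Of the transporters, Slc6a5 had values of 8.18, 8.53 and 8.44 on ethanol arrays 1 to 3 and 8.35, 8.33 and 8.24 on saline arrays 1 to 3. Ethanol array 1 was the lowest of all and ethanol arrays 2 and 3 were the highest, as for Glra1 at the upper end. The difference was 0.08 ± 0.11 (SE; limma adjusted p = 0.917), with a 95% interval from -0.18 to 0.33. It was 0.18 without ethanol array 1, where the groups no longer overlapped, and 0.01 without ethanol array 2. Glra1, Glra2, Glrb and Slc6a5 all had their highest value on ethanol array 2, as did 23.1% of all genes. Among genes within 0.5 of the level of each, that share was 31.8% for Glra1, 40.4% for Glra2, 55.0% for Glrb and 36.5% for Slc6a5.

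**Figure D2:**
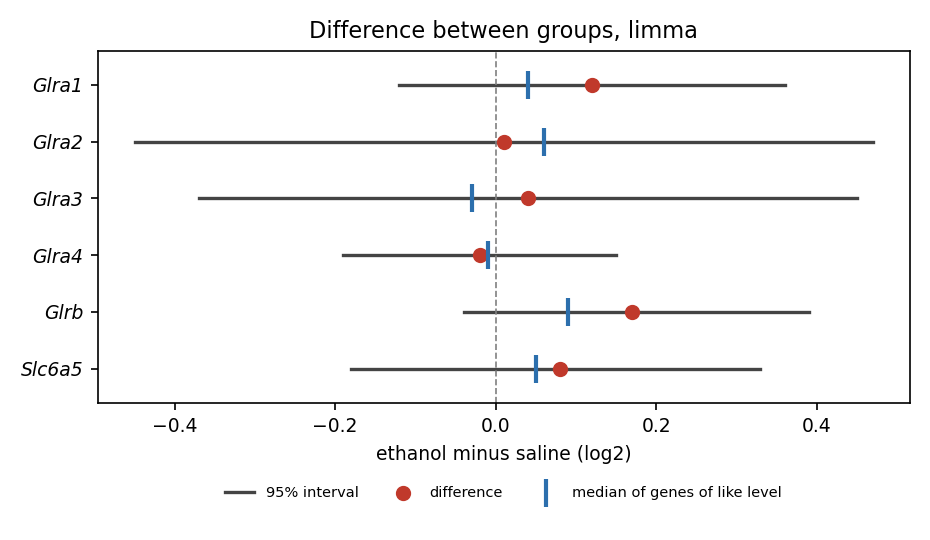
Ethanol minus saline difference in log2 expression (horizontal axis) for each of the 6 genes, with its 95% interval from limma and, as a blue tick, the median difference of all genes within 0.5 of the same level. Every interval includes 0, from the narrowest for Glra4 to the widest for Glra2, and the blue ticks lie between -0.03 and 0.09.

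**Figure D3:**
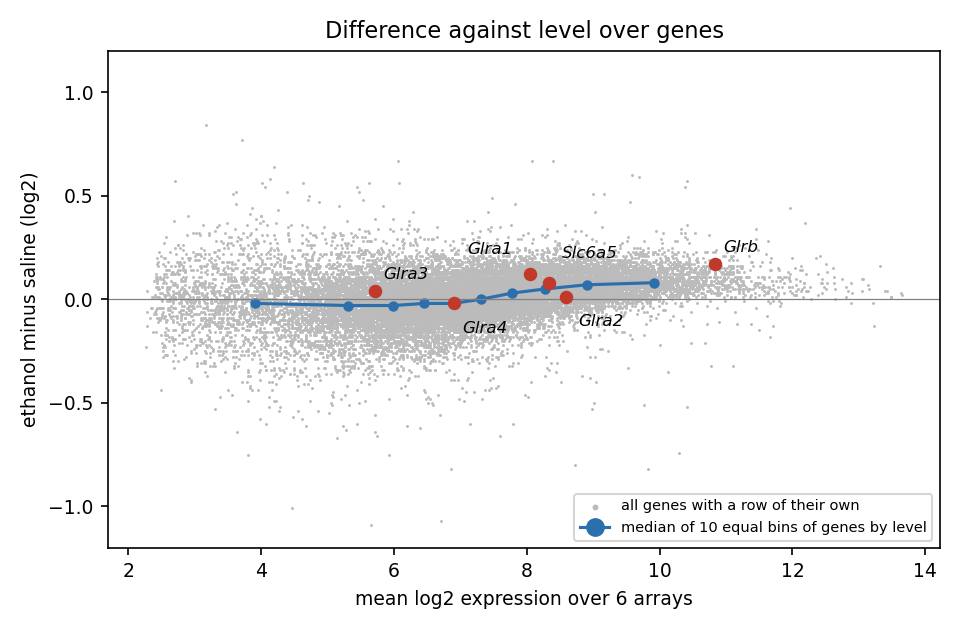
Ethanol minus saline difference (log2, vertical axis) against mean log2 expression over 6 arrays (horizontal axis) for 22180 genes in grey, with the 6 glycine receptor and transporter genes in red and the median of each of 10 equal bins of genes by level in blue. The blue line goes from -0.02 to 0.08 with level; 1 gene lies beyond the vertical axis, which ends at 1.2 in both directions.

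The genes whose pattern over the 6 arrays was most like each gene above the median level of all rows, 6.60, were found by Pearson correlation over 18769 genes, predicted genes left out. That includes Glra4, though it was within the dim reference. For Glrb they were Capzb, an actin capping protein subunit (r = 0.999, Spearman's rho = 1.00), Mrpl24 (r = 0.998, rho = 1.00) and Crip2 (r = 0.998, rho = 0.94), and 203 genes exceeded r = 0.95. For Glra2 they were Ddrgk1 (r = 0.991, rho = 1.00), Dcx, a microtubule protein of immature neurons (r = 0.979, rho = 1.00), and Il1rapl2 (r = 0.976, rho = 0.94), with 19 genes above 0.95. For Glra1 they were Flrt1 (r = 0.994, rho = 0.94), Invs (r = 0.986, rho = 0.94) and Fyb2 (r = 0.980, rho = 1.00). For Slc6a5 they were Olfr165 (r = 0.994, rho = 1.00), Ccrl2 (r = 0.991, rho = 1.00) and Prrc2c (r = 0.987, rho = 0.94). For Glra4 they were Tssk4 (r = 0.992, rho = 0.99), Scgb1b20 (r = 0.992, rho = 1.00) and Slc30a3 (r = 0.989, rho = 0.94). With 6 arrays and so many genes, values this high are found for each of the 5, and Olfr165 at a mean of 3.15 was itself among the dim receptor rows. Fyb2 at 4.65, Il1rapl2 at 4.94, Tssk4 at 5.67, Ccrl2 at 5.79 and Invs at 6.67 also lay below the 95th percentile of those rows, 6.98. All genes were read on the same 6 arrays and share each array's spread of values, so these figures are a description of likeness only.

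The genes of 5 lists around glycine did not pass the test. The lists cover glycine synthesis and cleavage, its other carriers, the inhibitory synapse, NMDA receptor and D-serine genes, and taurine genes. Of 41 genes in 5 lists 39 were measured: 30 had a higher and 9 a lower mean in ethanol, with a median difference of 0.03. Over all genes 57.2% were higher. The median level of the 39 was 8.27, and of genes within 0.5 of Slc6a5, at 8.34, 75.5% were higher. The levels of the 39 ran from 4.76 to 10.34, so that window does not match them all. By limma 0 of 39 passed at an adjusted p under 0.05 and 0 at an unadjusted p under 0.05, beside 0.0% and 3.18% of all genes. The balance of directions rested on the scaling and on 1 array: the lower genes numbered 19 with quantile normalization and with cyclic loess, and 18 without saline array 2. The groups did not overlap for 2 of 39, against 10.5% of all genes.

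In glycine synthesis and cleavage, which covers serine supply, the serine hydroxymethyltransferases and the glycine cleavage system, 8 of 9 genes had a higher and 1 a lower mean, with a median of 0.09. The gene with the smallest p was Psat1, a transaminase of serine synthesis. It stood at 8.38, 8.47 and 8.41 in ethanol and at 8.27, 8.29 and 8.32 in saline, without overlap, a difference of 0.13 ± 0.07 (SE; limma adjusted p = 0.857). Gldc, the decarboxylase of the cleavage system, was at 0.09 ± 0.08 and Shmt2, the mitochondrial hydroxymethyltransferase, at 0.14 ± 0.10 (SE).

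Among genes of the inhibitory synapse, 7 of 7 measured had a higher mean, with a median of only 0.03. The median level of this list, 9.76, lies in the brightest of the 10 bins of genes, where the median difference was 0.08. Gphn, the gephyrin scaffold to which Glrb binds, had an ethanol mean of 10.06 ± 0.04 and a saline mean of 10.03 ± 0.09 (SD, n = 3). Slc32a1, which loads glycine and GABA into vesicles, had means of 9.78 ± 0.03 and 9.75 ± 0.08 (SD, n = 3). Slc12a5, the chloride exporter that makes glycine inhibitory in mature neurons, had the smallest p of the list, with a difference of 0.10 ± 0.07 (SE; limma adjusted p = 0.865).

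Other carriers of glycine had 5 genes with a higher and 4 with a lower mean, with a median of 0.01. Slc36a1, a proton-coupled amino acid transporter, differed by 0.12 ± 0.09 (SE; limma adjusted p = 0.864), and Slc7a10, the alanine, serine and cysteine exchanger that also moves glycine and D-serine, by 0.07 ± 0.08. Of NMDA receptor and D-serine genes 7 of 9 were higher, with a median of 0.02. Srr, the racemase that makes the co-agonist D-serine, differed by 0.13 ± 0.08 (SE; limma adjusted p = 0.859). Of taurine genes 3 of 5 were higher, with a median of 0.02. Gadl1, a decarboxylase that makes beta-alanine, stood at 6.98, 6.97 and 6.97 in ethanol and at 6.99, 7.22 and 7.09 in saline. Its groups did not overlap, with ethanol lower by a difference of -0.13 ± 0.08 (SE; limma adjusted p = 0.859), though its level was close to the dim reference.

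**Figure D4:**
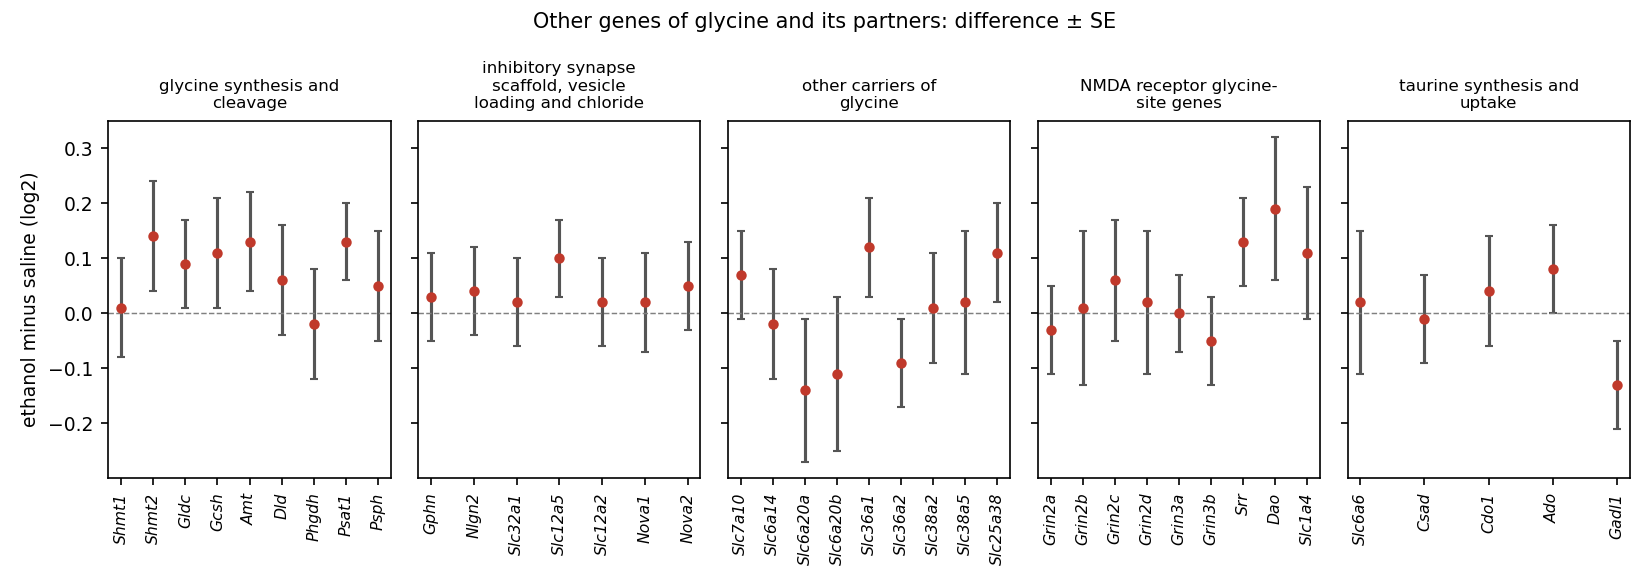
Ethanol minus saline difference in log2 expression ± SE (vertical axis) for the 39 measured genes of 5 lists around glycine, from limma on 3 arrays against 3. No gene passed the test, and the differences shown lie between -0.14 for Slc6a20a and 0.19 for Dao.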

How the data were processed

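The deposited table holds log2 expression values for 41345 probe rows on 6 arrays, already summarized by the authors; the scale was read from the range and similar quartiles. How background was corrected, probes summarized and arrays normalized is not given in the sources used here; differences may be compressed by these steps. The genome build is mm 10, per the submitters' processing notes. Labelling started from 200 ng of total RNA, per the labels. Names came from the platform annotation (23521 rows naming 1 gene, 1814 several, 16010 unnamed here), and positions and promoters from RefSeq, GRCm38.p6; promoter windows matched 6 of the 7 genes. Every row was fitted with limma 3.58.1 in R 4.3.3 (lmFit, eBayes, two-sided, no covariate, no filter), with Benjamini-Hochberg adjustment over all rows. The array, a pool of 3 of the 18 mice, is the replicate, so p-values measure the spread between pools; how litters were divided over pools is not given in the labels. The number of arrays limits the precision. The fit was tested on simulated data with 200 rows changed. A true difference of 0.5 was called in 22% of the rows given it, and 1.0 in 62%. Differences of 2.0 and of 3.0 were each called in 98%, and there were 6 false calls. Differences below 0.5 were not simulated. Simulated noise was drawn independently for each row at that row's observed SD, whereas rows of the real arrays share each array's spread. The rates also depend on the 200 rows changed, so they need not hold for the real comparison. Genes named were the 6 members, the gene with the smallest p of each list, the 3 most alike in pattern, and marker genes for their levels. Gldc, Shmt2, Gphn, Slc32a1, Slc7a10, Slc6a20a, Dao and, among markers, Grm2, Aqp4, Gjb6 and Fibcd1 were chosen after their values were seen. The genes and lists were chosen with earlier results of these data known. A planned comparison of protein sequences was not made. Alternatives covered scaling, the prior, filters, array weights, a replicate block and leaving out arrays.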

Additional observations from a re-analysis of the deposited data

How the results depend on the processing

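Glra1, Glrb and Slc6a5 kept their direction, and stayed short of the threshold, under all 16 alternatives tried, with differences from 0.05 to 0.19, from 0.06 to 0.22 and from 0.01 to 0.18. No gene of the 6 passed under any of them. Differences near 0 changed sign. Glra2 was at -0.03 with quantile normalization, -0.04 with cyclic loess, -0.04 with array weights and -0.15 without both arrays numbered 2. Glra3 was at -0.03 without those arrays, and Glra4 at 0.01, 0.02 and 0.00 with quantile normalization, median centring and cyclic loess. Leaving out 1 array gave -0.20 to 0.17 for Glra2, -0.12 to 0.19 for Glra3 and -0.05 to 0.01 for Glra4. Of the 39 glycine-related genes, those lower numbered 19 with quantile normalization, 5 with median centring, which moved the median over all rows to 0.04 from 0.00, 19 with cyclic loess, 18 without both arrays numbered 2, and 8 to 18 leaving out 1 array. Rows called numbered 0 to 1 leaving out 1 array, with 1 only without saline replicate 3, and 0 in the other settings. Removing both arrays numbered 2 was chosen after seeing the data. The cause of these changes was not tested. Deviations from the group means correlated at 0.101, -0.0564 and 0.038 for same-numbered arrays, and between -0.128 and 0.0992 for arrays of unlike number. With 3 arrays per group these values cannot exclude a pairing by number. With the replicate number as a block 0 rows were called and Glrb stood at 0.17 (limma adjusted p = 0.901). The SE of Glra3 was then 0.09, against 0.17 without the block. Each gene had 1 row, so other choices of row could not be tried, and Glra3 was below the filter on dim rows.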
